A study of Rattus norvegicus with 30 samples.

Results

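The CYP2C family of the rat was followed in primary hepatocytes exposed to dioctyl phthalate, through the 6 genes Cyp2c6v1, Cyp2c7, Cyp2c11, Cyp2c13, Cyp2c22 and Cyp2c23. The members are the probe sets that the array's gene table assigns to these genes, 1 probe set for each gene. All 6 passed the filter on low signals and stood among 10528 tested genes. Another gene of the family on the array, Cyp2c12, is given at the end for comparison.

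CYP2C enzymes are haem-containing monooxygenases of the endoplasmic reticulum that hydroxylate drugs and steroids and turn arachidonic acid and other fatty acids into epoxides. They take electrons from cytochrome P450 oxidoreductase. In rat liver several members differ between the sexes, because the pattern of growth hormone release sets their transcription. The amounts of these enzymes fall when hepatocytes are kept in culture, and xenobiotics that activate nuclear receptors such as CAR, PXR and PPARα can raise or lower them.

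Frozen hepatocytes from male Sprague Dawley rats were purchased, thawed, plated on collagen and overlaid with Matrigel. On day 3 of culture they received dioctyl phthalate, a plasticiser of the phthalate diester class, at 250 or 1000 µM, or the vehicle, 1% DMSO, in which the compound was also dissolved. RNA was taken 24 or 48 h later. The 6 groups were therefore vehicle, 250 µM and 1000 µM at 24 h and the same 3 treatments at 48 h, each with 5 culture wells and 1 array per well, 30 arrays in all. The cells were outside the living animal and its hormone release, and hormones in the medium were not examined. The sources used here do not give how many animals or vials the cells came from, so errors and p-values describe wells. Replicate numbers name the arrays of a group in the order of deposition. Values are log2 of the array signal plus 1 unless stated otherwise, and levels of different probe sets are not set against each other.

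Hepatocyte markers were present throughout: 12 of the 14 listed genes were on the array and 12 were above the low-signal limit, with summed signals between 404091 and 743714. Above the limit were 5 of 11 stellate cell and myofibroblast markers, 5 of the 8 Kupffer cell and leukocyte markers on the array, 2 of the 6 liver endothelial markers on the array and 1 of the 5 cholangiocyte markers on the array. Their summed signals ranged from 3431 to 5047, 19984 to 27745, 713 to 1859 and 10141 to 15599, and no marker was at 0. Correlations between arrays of a group, taken across genes, were 0.968 to 0.986. The 3'/5' log2 ratio of beta-actin, which rises when RNA is shortened, averaged 1.72 ± 0.494 over the 5 vehicle arrays of 48 h (SD), with 2.44, 1.74, 1.70, 1.04 and 1.66 in replicates 1 to 5. In the other groups single arrays lay between 0.98 and 1.51. The main CYP2C results that rest on the vehicle arrays of 48 h, and the gene list counts of 48 h, are given with and without the 4 arrays of raised ratio. A fit with only 1 vehicle array left assumes that this array varies like those of the other groups.

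The upstream sequences of 4 members are shown, Cyp2c7, Cyp2c11, Cyp2c13 and Cyp2c23. They were chosen because these 4 were lower at 48 than at 24 h under all 3 treatments at an adjusted p under 0.05. For Cyp2c11 in vehicle this did not hold with array medians centred, with quantile normalization or with the actin ratio as a covariate. It also did not hold without the 4 vehicle arrays of raised actin ratio, or without certain single arrays named below. Each sequence is the 250 bases before the transcription start in the RefSeq promoter table (build GRCr8), which held 5 of the 6 members. They are written 5′ to 3′ along the gene, with capitals marking matches to the motifs described after them.
Cyp2c7: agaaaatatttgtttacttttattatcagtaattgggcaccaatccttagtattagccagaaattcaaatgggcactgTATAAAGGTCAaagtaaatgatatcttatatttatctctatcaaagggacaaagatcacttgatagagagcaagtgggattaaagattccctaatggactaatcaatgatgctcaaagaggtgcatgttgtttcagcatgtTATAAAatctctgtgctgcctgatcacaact
Cyp2c11: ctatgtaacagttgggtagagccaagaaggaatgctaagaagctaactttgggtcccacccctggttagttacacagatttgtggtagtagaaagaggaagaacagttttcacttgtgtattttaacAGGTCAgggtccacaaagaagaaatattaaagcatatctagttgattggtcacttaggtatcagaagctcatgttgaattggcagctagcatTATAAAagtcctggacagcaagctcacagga
Cyp2c13: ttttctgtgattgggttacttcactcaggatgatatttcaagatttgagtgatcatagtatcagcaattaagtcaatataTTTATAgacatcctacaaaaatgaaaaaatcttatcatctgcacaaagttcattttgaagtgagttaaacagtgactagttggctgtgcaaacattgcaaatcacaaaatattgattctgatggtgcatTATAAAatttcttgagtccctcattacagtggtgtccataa
Cyp2c23: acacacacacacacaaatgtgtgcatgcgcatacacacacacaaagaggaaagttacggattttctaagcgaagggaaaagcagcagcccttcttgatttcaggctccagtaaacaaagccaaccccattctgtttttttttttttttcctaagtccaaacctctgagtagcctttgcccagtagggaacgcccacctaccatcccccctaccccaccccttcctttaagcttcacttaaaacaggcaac

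These windows lie at chr1:247966144-247966393 on the plus strand (Cyp2c7), chr1:246174966-246175215 on the plus strand (Cyp2c11), chr1:248787189-248787438 on the minus strand (Cyp2c13) and chr1:252863068-252863317 on the minus strand (Cyp2c23). In the RefSeq gene table the genes follow each other on chromosome 1 in the order Cyp2c11, Cyp2c6v1, Cyp2c7, Cyp2c12, Cyp2c13 and Cyp2c22, and Cyp2c23 lies further along. A search on both strands covered 6 motifs: the nuclear receptor hexamer AGGTCA, the HNF4 core CAAAGTCC, the STAT element TTCNNNGAA, the C/EBP element TTGCNNAA, the HNF1 element and the TATA box TATAAA. The TATA box letters began at -31 in both Cyp2c7 and Cyp2c11 and at -41 in Cyp2c13, counted from the start site, while the Cyp2c23 window held no match to any of the 6. Cyp2c13 also held them at -170 on the opposite strand, written TTTATA along the gene. AGGTCA began at -167 in Cyp2c7, sharing its first base with another TATAAA match at -172, and at -123 in Cyp2c11. Of 33469 windows of this length in the table, 14.1% held AGGTCA and 12.9% held TATAAA. Among the 5 members with a sequence 3 held AGGTCA and 4 held TATAAA. Cyp2c22, whose window is not shown, had both, AGGTCA at -30 on the opposite strand and TATAAA at -197. CAAAGTCC was in 1.14%, TTCNNNGAA in 7.67% and the HNF1 element in 0.323% of all windows and in 0 of the 5 members with a sequence. TTGCNNAA was in 9.22% of all windows and in 1 member, Cyp2c22. A match describes the letters in the window and does not show a bound factor.

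Cyp2c6v1 was the member that rose. This gene encodes a hepatic drug-metabolising enzyme found in both sexes and inducible by phenobarbital. At 24 h its log2 signal was 13.84, 14.33, 14.32, 14.32 and 14.15 in vehicle, 14.93, 14.94, 15.01, 14.93 and 15.01 at 250 µM, and 14.83, 14.97, 15.03, 15.07 and 14.95 at 1000 µM. At 48 h it was 14.11, 13.98, 14.02, 14.03 and 13.98 in vehicle, 15.13, 15.17, 15.22, 15.20 and 15.29 at 250 µM, and 15.14, 15.03, 15.09, 15.06 and 15.08 at 1000 µM. Every treated array of either time lay above every vehicle array of that time. The rise at 24 h was 1.71-fold at both doses, with log2 changes of 0.77 ± 0.06 (SE, limma adjusted p = 1.59e-11) at 250 µM and 0.78 ± 0.06 (adjusted p = 1.46e-11) at 1000 µM. The rise at 48 h was 2.27-fold at 250 µM (1.18 ± 0.06, adjusted p = 1.83e-16) and 2.09-fold at 1000 µM (1.06 ± 0.06, adjusted p = 4.26e-15). The 12 hepatocyte markers tested had median changes of -0.15 and -0.24 at 24 h and -0.14 and -0.21 at 48 h. Their part in the Cyp2c6v1 result was not tested. Without the 4 vehicle arrays of raised actin ratio the Cyp2c6v1 changes at 48 h were 1.18 and 1.06.

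**Figure D1:**
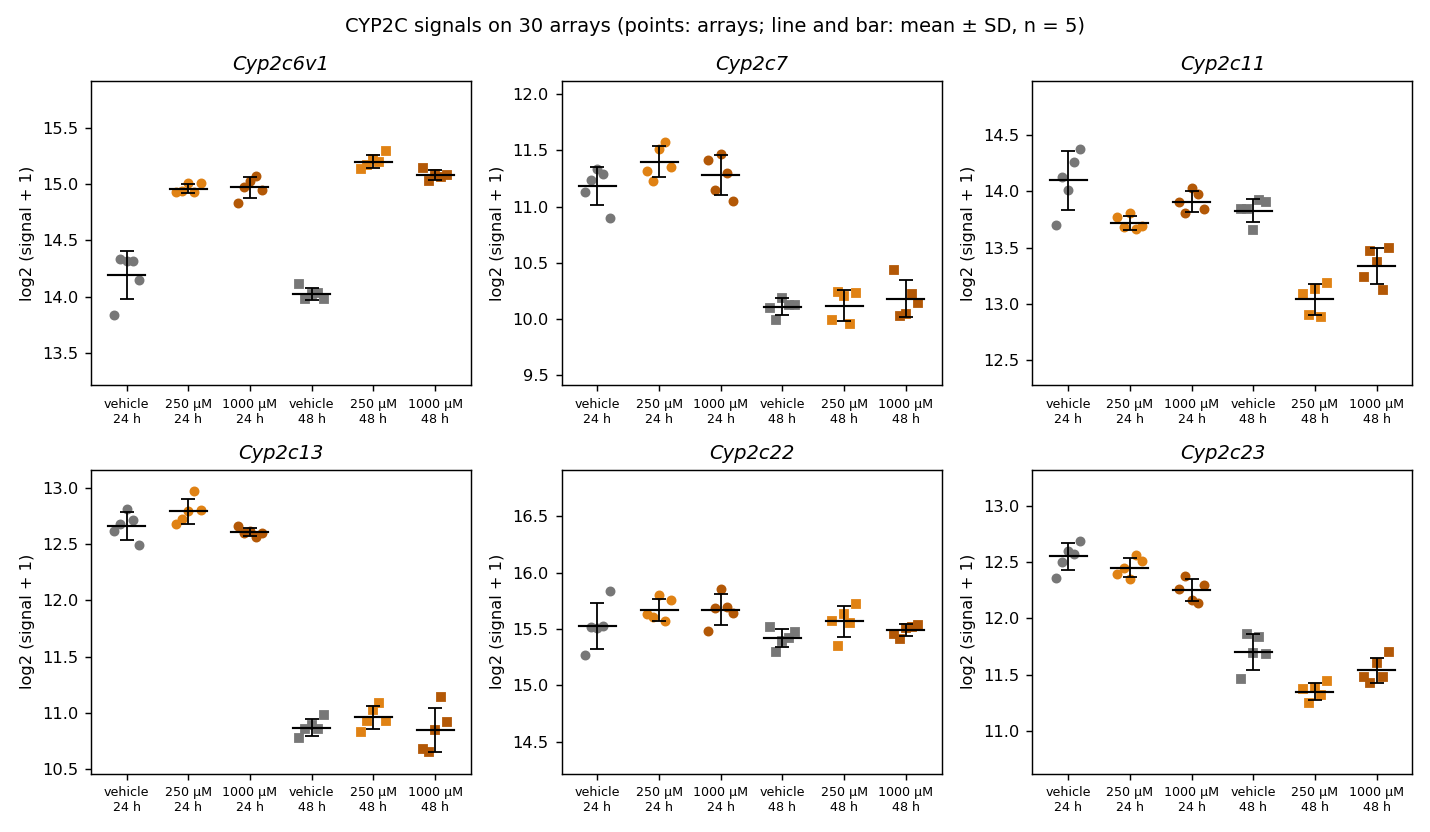
Log2 (signal + 1) of the 6 CYP2C genes on the 30 arrays, with 1 panel per gene, the 6 groups on the horizontal axis, points for arrays and bars for the mean ± SD of 5 arrays. Cyp2c6v1 stands higher in both treated groups at each time, Cyp2c11 lies lowest at 250 µM and 48 h (12.88 to 13.19), and Cyp2c7, Cyp2c13 and Cyp2c23 step down between 24 and 48 h; every panel spans the same log2 distance.

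Among the 6 group means of Cyp2c6v1, from 14.02 in vehicle at 48 h to 15.20 at 250 µM and 48 h, the ascending order was vehicle at 48 h, vehicle at 24 h, 250 µM at 24 h, 1000 µM at 24 h, 1000 µM at 48 h and 250 µM at 48 h. The arrays of neighbouring groups in this order overlapped except between vehicle at 24 h and 250 µM at 24 h. The probe set carries the suffix that Affymetrix gives to sets matching several transcripts of 1 gene. Whether closely related CYP2C copies share its probes was not tested.

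Cyp2c11 had the largest fall of the members in 3 of the 4 comparisons with vehicle, all but 1000 µM at 24 h. It encodes the main male-specific P450 of rat liver, a testosterone hydroxylase and arachidonic acid epoxygenase that depends on pulses of growth hormone. At 48 h its log2 signal was 13.84, 13.84, 13.66, 13.92 and 13.91 in vehicle, 13.09, 12.90, 13.13, 12.88 and 13.19 at 250 µM, and 13.24, 13.47, 13.37, 13.12 and 13.50 at 1000 µM. All treated arrays lay below all vehicle arrays. The fall was 1.74-fold at 250 µM (-0.80 ± 0.09, adjusted p = 7.05e-09) and 1.41-fold at 1000 µM (-0.49 ± 0.09, adjusted p = 4.58e-05). At 24 h the values were 13.70, 14.13, 14.01, 14.26 and 14.38 in vehicle, 13.77, 13.68, 13.81, 13.67 and 13.69 at 250 µM, and 13.91, 13.81, 14.03, 13.98 and 13.84 at 1000 µM. The vehicle arrays spread widely here, and both treated groups overlapped with them. The change at 24 h was -0.38 ± 0.09 at 250 µM (adjusted p = 0.00169) and -0.18 ± 0.09 at 1000 µM (adjusted p = 0.154), and the second passed the test without vehicle replicate 1 (-0.28, adjusted p = 0.00861).

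The group means of Cyp2c11 ran from 13.04 at 250 µM and 48 h to 14.10 in vehicle at 24 h. In ascending order 250 µM at 48 h was followed by 1000 µM at 48 h, 250 µM at 24 h, vehicle at 48 h, 1000 µM at 24 h and vehicle at 24 h. Arrays of neighbours overlapped except between 1000 µM at 48 h and 250 µM at 24 h. Without the 4 vehicle arrays of raised actin ratio the changes at 48 h were -0.89 (adjusted p = 0.000149) and -0.58 (adjusted p = 0.012). With vehicle replicate 3 as the only vehicle array of 48 h, the change at 1000 µM was -0.32 (adjusted p = 0.183). The summed signal of the hepatocyte markers also had lower medians under treatment, 488157 and 447298 at 250 and 1000 µM against 556000 in vehicle at 48 h, and its part in this result was not tested. In RNA from whole wells, fewer hepatocytes and less RNA per hepatocyte cannot be told apart.

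Cyp2c23 fell in 2 of the 4 comparisons with vehicle. It encodes an arachidonic acid epoxygenase, known above all from rat kidney. Its log2 signal at 48 h was 11.46, 11.86, 11.69, 11.83 and 11.68 in vehicle, 11.37, 11.25, 11.38, 11.32 and 11.44 at 250 µM, and 11.48, 11.43, 11.60, 11.48 and 11.70 at 1000 µM. The 250 µM arrays were below all vehicle arrays, by a narrow margin to vehicle replicate 1, and the 1000 µM arrays overlapped with vehicle. The change was -0.35 ± 0.07 at 250 µM (1.28-fold lower, adjusted p = 0.000171) and -0.17 ± 0.07 at 1000 µM (adjusted p = 0.0784). At 24 h the values were 12.36, 12.50, 12.60, 12.57 and 12.69 in vehicle, 12.39, 12.45, 12.35, 12.56 and 12.51 at 250 µM, and 12.26, 12.38, 12.16, 12.14 and 12.30 at 1000 µM. The order of doses was the opposite at 24 h, with -0.09 ± 0.07 at 250 µM (adjusted p = 0.442) and -0.30 ± 0.07 at 1000 µM (1.23-fold lower, adjusted p = 0.00252). Arrays of both doses overlapped with vehicle at 24 h.

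The Cyp2c23 values at 48 h leaned on single arrays. With vehicle replicate 1 as the only vehicle array, the change at 250 µM was -0.11 (adjusted p = 0.518). Without the 4 arrays of raised actin ratio, which include that replicate, it was -0.48 (adjusted p = 0.00362). The change at 1000 µM passed the test without vehicle replicate 1 (-0.23, adjusted p = 0.0137), without 1000 µM replicate 5 (-0.21, adjusted p = 0.0347) and when the actin ratio entered the fit (-0.26, adjusted p = 0.0108), and was -0.29 (adjusted p = 0.101) without the 4 arrays. Group means ran in ascending order from 11.35 at 250 µM and 48 h through 11.54 at 1000 µM and 11.70 in vehicle at 48 h to 12.25 at 1000 µM, 12.45 at 250 µM and 12.55 in vehicle at 24 h. Arrays of neighbouring groups overlapped except between vehicle at 48 h and 1000 µM at 24 h.

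The other 3 members did not pass the test in any comparison with vehicle. Cyp2c7 encodes an enzyme that hydroxylates retinoic acid, and its changes were 0.22 ± 0.10 at 250 µM and 24 h (adjusted p = 0.115, 95% interval 0.02 to 0.41), and 0.10, 0.02 and 0.07 at 1000 µM and 24 h and at 250 and 1000 µM and 48 h. Its 95% intervals at 48 h were -0.18 to 0.21 and -0.13 to 0.26. Cyp2c13, a male-predominant steroid hydroxylase, had changes of 0.13, -0.06, 0.09 and -0.02 in the same order, with adjusted p between 0.284 and 0.859. Without the 4 vehicle arrays of raised actin ratio the changes at 250 and 1000 µM and 48 h were -0.01 and 0.05 for Cyp2c7 and 0.10 and -0.01 for Cyp2c13, and neither gene passed the test. Its probe set carries the suffix for sequence shared between transcripts of several genes, so a related gene could contribute to its signal.

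Cyp2c22, which also hydroxylates retinoic acid, had signals between 39551 and 59473 on the 30 arrays, while the highest signal of the whole table was 116604. Its means were 15.53 in vehicle, 15.67 at 250 µM and 15.67 at 1000 µM at 24 h, and 15.42, 15.57 and 15.49 at 48 h. The groups overlapped throughout. Changes from vehicle were 0.14 ± 0.08 at both doses at 24 h (adjusted p = 0.232 and 0.225), and 0.15 ± 0.08 (adjusted p = 0.125) and 0.07 ± 0.08 (adjusted p = 0.546) at 48 h, or 0.14 and 0.06 without the 4 arrays. Both values at 24 h passed the test without vehicle replicate 5, the highest of its group (0.22, adjusted p = 0.0265, and 0.21, adjusted p = 0.0274), and that of 250 µM at 48 h without 250 µM replicate 2 (0.20, adjusted p = 0.0379).

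**Figure D2:**
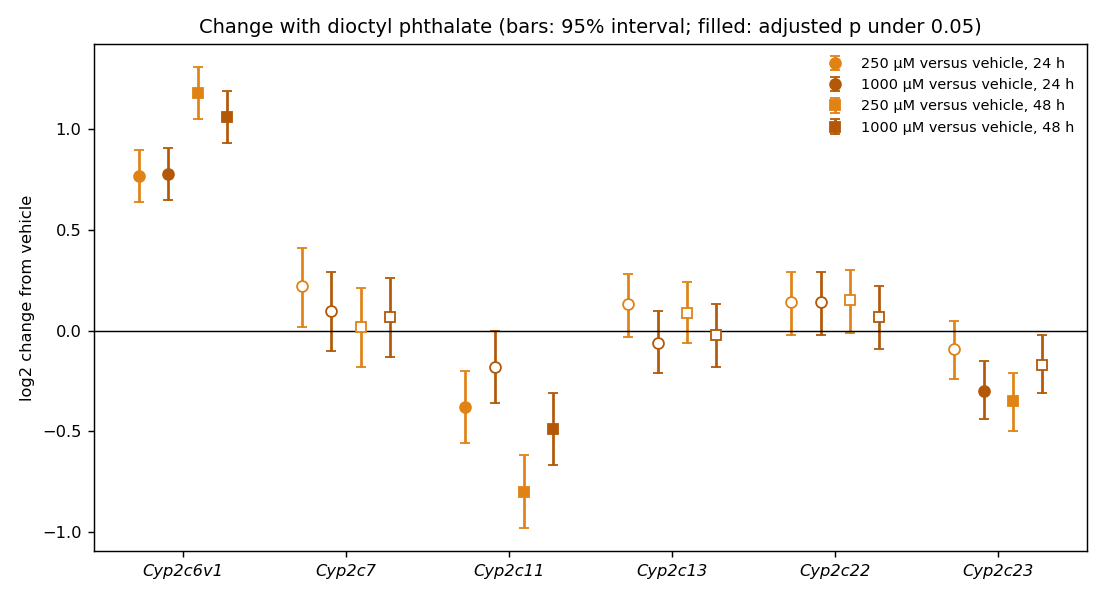
Log2 change from vehicle of each CYP2C gene (vertical axis) with its 95% interval, at 250 and 1000 µM and at 24 and 48 h; filled symbols have an adjusted p under 0.05. Cyp2c6v1 is above 0 in all 4 comparisons (0.77 to 1.18), Cyp2c11 has values from -0.80 to -0.18, and Cyp2c7, Cyp2c13 and Cyp2c22 have open symbols.

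Counted together, 1 member rose and 1 fell at 250 µM and 24 h, where 19.3% of all tested genes changed, 8.31% up and 11% down. At 1000 µM and 24 h 1 rose and 1 fell, where 19.5% changed, 8.28% up and 11.2% down. At 48 h 1 rose and 2 fell at 250 µM, beside 41.2% of all genes changed, 15.2% up and 26% down, and 1 rose and 1 fell at 1000 µM, beside 29.7%, 11.5% up and 18.3% down. Read against these shares, each count of changed members differed by less than 1 gene. The median change of the 6 members was 0.13, 0.02, 0.05 and 0.02 in these comparisons, beside -0.03, -0.03, -0.07 and -0.04 for all tested genes.

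**Figure D3:**
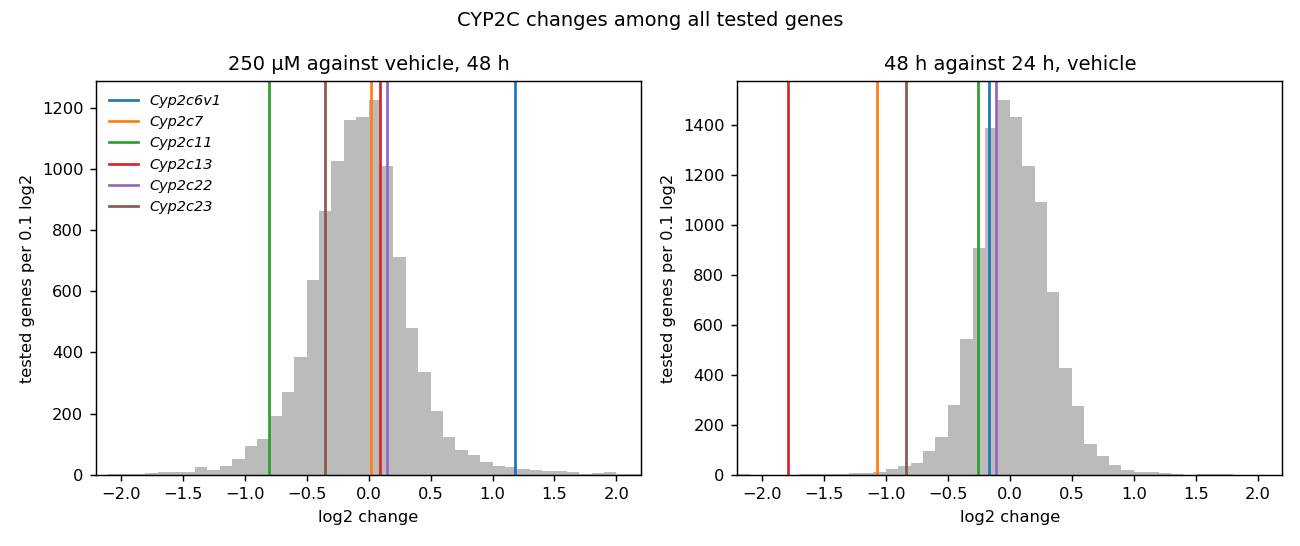
Histograms of the log2 change of 10528 tested genes (number of genes per 0.1 log2) for 250 µM against vehicle at 48 h, left, and for 48 against 24 h in vehicle, right, with a coloured line for each CYP2C gene. At left Cyp2c6v1 (1.18) and Cyp2c11 (-0.80) lie on opposite flanks, and at right Cyp2c13 (-1.79), Cyp2c7 (-1.07) and Cyp2c23 (-0.84) lie on the lower flank.

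The doses were also compared directly. Between 1000 and 250 µM 0 of the 6 members passed limma's test at either time, where 0.019% of all tested genes changed at 24 h and 0.0665% at 48 h. At an unadjusted p under 0.05 there were 3 members at 24 h, beside 3.18% of all tested genes, and 2 at 48 h, beside 12.3%. The difference of Cyp2c11, 1000 minus 250 µM, was 0.19 (95% interval 0.01 to 0.37, limma adjusted p = 1) at 24 h and 0.30 (0.12 to 0.48, limma adjusted p = 0.171) at 48 h. The 2 dose groups of this gene did not overlap at 24 h and overlapped at 48 h. For Cyp2c23 the difference was -0.20 (-0.35 to -0.06) at 24 h and 0.19 (0.04 to 0.33) at 48 h. Cyp2c13 differed by -0.18 (-0.34 to -0.03) at 24 h and Cyp2c6v1 by -0.12 (-0.25 to 0.01) at 48 h. A threshold that was missed does not show that the doses acted alike, and these intervals give the differences that the arrays allow.

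Time in culture went with lower signals of most members. In vehicle 5 of the 6 were lower at 48 than at 24 h, where 11.7% of all tested genes fell, 16.4% rose and 28.1% changed in either direction. Only 3 members fell with array medians centred, with quantile normalization or with the actin ratio as a covariate. Of all tested genes 469, 1307 and 357 fell under these settings. In the reported fit the median change of the members in vehicle was -0.55, beside 0.02 for all tested genes. At 250 µM 4 fell and 1 rose, beside 13.4% of all tested genes changed, 6.52% down and 6.86% up, and at 1000 µM 4 fell, beside 18%, 8.11% down and 9.91% up. These comparisons within the dosed groups were added after the data were seen.

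Cyp2c13 had the largest fall of the 6. Its log2 signal in vehicle was 12.62, 12.68, 12.81, 12.71 and 12.49 at 24 h and 10.78, 10.86, 10.89, 10.86 and 10.98 at 48 h. At 250 µM it was 12.68, 12.72, 12.79, 12.97 and 12.80, then 10.83, 10.93, 11.03, 11.09 and 10.93, and at 1000 µM 12.66, 12.60, 12.62, 12.56 and 12.60, then 10.68, 10.65, 10.85, 11.14 and 10.92. No array of 48 h came near those of 24 h. The fall was 3.46-fold in vehicle (-1.79 ± 0.08, adjusted p = 2.18e-18), 3.56-fold at 250 µM (-1.83 ± 0.08) and 3.38-fold at 1000 µM (-1.76 ± 0.08). In the order of its 6 means, from 10.85 at 1000 µM and 48 h to 12.79 at 250 µM and 24 h, neighbours overlapped except between 250 µM at 48 h and 1000 µM at 24 h. The 2 dosed groups of 24 h, which were not neighbours in that order, did not overlap with each other.

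Cyp2c7 also fell under each treatment. In vehicle it was 11.13, 11.24, 11.33, 11.29 and 10.90 at 24 h and 10.10, 9.99, 10.19, 10.13 and 10.13 at 48 h, without overlap. The 250 µM arrays went from 11.32, 11.23, 11.51, 11.57 and 11.35 to 9.99, 10.24, 10.21, 9.96 and 10.23, and the 1000 µM arrays from 11.41, 11.15, 11.47, 11.30 and 11.05 to 10.44, 10.03, 10.05, 10.22 and 10.14. The falls were 2.10-fold in vehicle (-1.07 ± 0.10, adjusted p = 7.92e-10), 2.42-fold at 250 µM (-1.27 ± 0.10) and 2.14-fold at 1000 µM (-1.10 ± 0.10). Its means ascended in the order vehicle (10.11), 250 µM (10.12) and 1000 µM (10.18) at 48 h, then vehicle (11.18), 1000 µM (11.28) and 250 µM (11.40) at 24 h, and the groups of 1 time overlapped with each other.

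Cyp2c23 fell 1.79-fold in vehicle (-0.84 ± 0.07, adjusted p = 2.97e-10), 2.15-fold at 250 µM (-1.10 ± 0.07) and 1.64-fold at 1000 µM (-0.71 ± 0.07), with no overlap between the times. Without the 4 vehicle arrays of raised actin ratio the falls in vehicle were -0.72 for this gene, -1.05 for Cyp2c7 and -1.81 for Cyp2c13, all past the test. Cyp2c22 did not pass it under any treatment, with -0.11 ± 0.08 in vehicle (95% interval -0.27 to 0.04), -0.11 at 250 µM and -0.18 at 1000 µM (adjusted p = 0.0911).

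**Figure D4:**
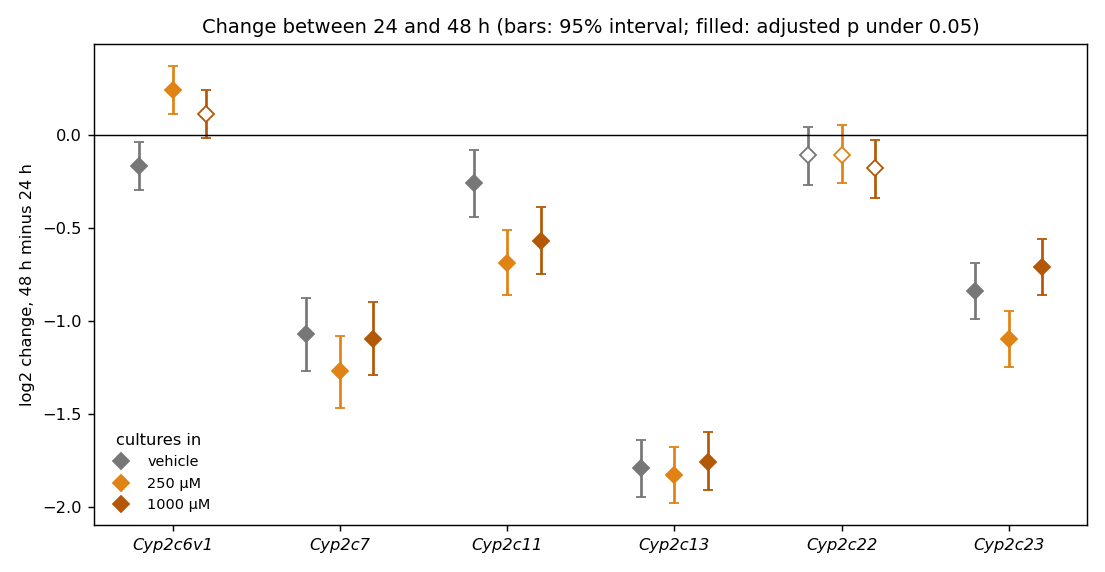
Log2 change from 24 to 48 h of each CYP2C gene (vertical axis) with its 95% interval, in vehicle, 250 µM and 1000 µM cultures; filled symbols have an adjusted p under 0.05. Cyp2c13 lies between -1.83 and -1.76 in the 3 treatments, Cyp2c11 lies at -0.26 in vehicle, -0.69 at 250 µM and -0.57 at 1000 µM, and Cyp2c6v1 is below 0 in vehicle (-0.17) and above 0 in the dosed cultures (0.24 and 0.11).

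The 2 members that responded most to the compound had small changes with time in vehicle. Cyp2c11 changed by -0.26 ± 0.09 (adjusted p = 0.0236), with overlapping groups. The call was lost without vehicle replicate 4 or 5 of 24 h (-0.22, adjusted p = 0.0756, and -0.19, adjusted p = 0.103) or replicate 3 of 48 h (-0.22, adjusted p = 0.0823). At 250 and 1000 µM its falls were -0.69 ± 0.09 (adjusted p = 6.26e-07) and -0.57 ± 0.09 (adjusted p = 1.49e-05), without overlap. Cyp2c6v1 changed by -0.17 ± 0.06 in vehicle (adjusted p = 0.0398), 0.24 ± 0.06 at 250 µM (adjusted p = 0.00954, without overlap) and 0.11 ± 0.06 at 1000 µM (adjusted p = 0.249). Its call in vehicle was lost without replicate 2, 3 or 4 of 24 h (-0.14 each, adjusted p = 0.122, 0.121 and 0.12) or replicate 2, 3 or 5 of 48 h (-0.16, -0.17 and -0.16, adjusted p = 0.0838, 0.0652 and 0.0832). Without the 4 arrays of raised actin ratio neither gene's call in vehicle remained (-0.17, adjusted p = 0.707, for Cyp2c6v1 and -0.18, adjusted p = 0.806, for Cyp2c11).

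Whether the effect of the compound differed between the times was tested with an interaction term. At 250 µM it was larger at 48 than at 24 h for Cyp2c6v1, by 0.41 ± 0.09 (adjusted p = 0.00418), and more negative for Cyp2c11, by -0.42 ± 0.12 (adjusted p = 0.0313), where 8.36% of all tested genes had a difference, 3.84% upward and 4.52% downward. The Cyp2c11 difference missed the threshold without any 1 of 6 arrays, namely vehicle replicate 3 and 250 µM replicate 1 of 24 h, and vehicle replicates 2 and 5 and 250 µM replicates 2 and 4 of 48 h, with values from -0.42 to -0.38 and adjusted p from 0.0511 to 0.0655. Both differences missed it without the 4 vehicle arrays of raised actin ratio (0.40, adjusted p = 0.215, and -0.51, adjusted p = 0.279). At 1000 µM 0 of the 6 members passed limma's test, beside 0.969% of all tested genes, and Cyp2c6v1 (0.28) and Cyp2c11 (-0.31) had an unadjusted p under 0.05, as did 11.5% of all tested genes. Without vehicle replicate 1 of 24 h the Cyp2c6v1 value was 0.37 (adjusted p = 0.000946). The Cyp2c23 difference at 250 µM was -0.26 ± 0.10 (adjusted p = 0.107), and -0.32 (adjusted p = 0.0397) without vehicle replicate 1 of 48 h.

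Cyp2c12, the female-specific steroid hydroxylase of rat liver, was the other gene of the family on the array. Its mean signal over the 5 vehicle arrays of these male cells was 1969 ± 365 (SD) at 24 h and 1070 ± 150 at 48 h. Its changes at 250 and 1000 µM were -0.68 ± 0.13 (adjusted p = 0.000114) and -0.49 ± 0.13 (adjusted p = 0.00515) at 24 h, and -0.54 ± 0.13 (adjusted p = 0.000791) and -0.47 ± 0.13 (adjusted p = 0.00441) at 48 h. Without the 4 vehicle arrays of raised actin ratio the values of 48 h were -0.56 (adjusted p = 0.0938) and -0.49 (adjusted p = 0.173), and with vehicle replicate 3 as the only vehicle array of 48 h they were -0.24 (adjusted p = 0.463) and -0.17 (adjusted p = 0.677). Cyp2c12 also fell with time, by -0.87 ± 0.13 in vehicle, -0.73 ± 0.13 at 250 µM and -0.86 ± 0.13 at 1000 µM. Each of these falls passed the test, without overlap between the times. The fall in vehicle was -0.85 without the 4 arrays, and -0.61 with vehicle replicate 5 as the only vehicle array of 48 h. It had 1 probe set, and whether the male and female forms share probe sequence was not tested.

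The genes whose 6 group means ran closest to those of Cyp2c6v1, by the root mean square difference after centring each gene, were Mlycd, malonyl-CoA decarboxylase (0.0518), Cmtm8 (0.0583) and Ankrd37 (0.0628). Mlycd rose by 0.91, 0.85, 1.10 and 0.96 at 250 and 1000 µM at 24 h and then at 48 h. For Cyp2c11 they were Rp2 (0.0712), Adgre5 (0.0807) and Apoc4, an apolipoprotein gene (0.0967), and Apoc4 had log2 changes of -0.35, -0.29, -0.60 and -0.53 in the same order. For Cyp2c23 they were Sult1e1, oestrogen sulfotransferase (0.0965), Ifitm1 (0.103) and S100a4 (0.104). This likeness was taken over 6 groups on the log2 scale, and describes these means. S100a4 had means of 7.72, 7.60 and 7.83 in vehicle, 250 µM and 1000 µM at 48 h. Rp2 had a mean of 7.75 at 250 µM and 48 h. These means were below the low-signal limit of 7.88. The SE of a change from vehicle was 0.43 for S100a4, 0.22 for Sult1e1, 0.21 for Rp2, 0.18 for Adgre5 and 0.15 for Ifitm1. It was 0.12 for Ankrd37, 0.11 for Cmtm8, 0.07 for Apoc4 and 0.06 for Mlycd. For all of these but Apoc4 it was larger than the distance, so the order of the nearest genes is uncertain. Sult1e1 and S100a4 passed the test in no comparison with vehicle.

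**Figure D5:**
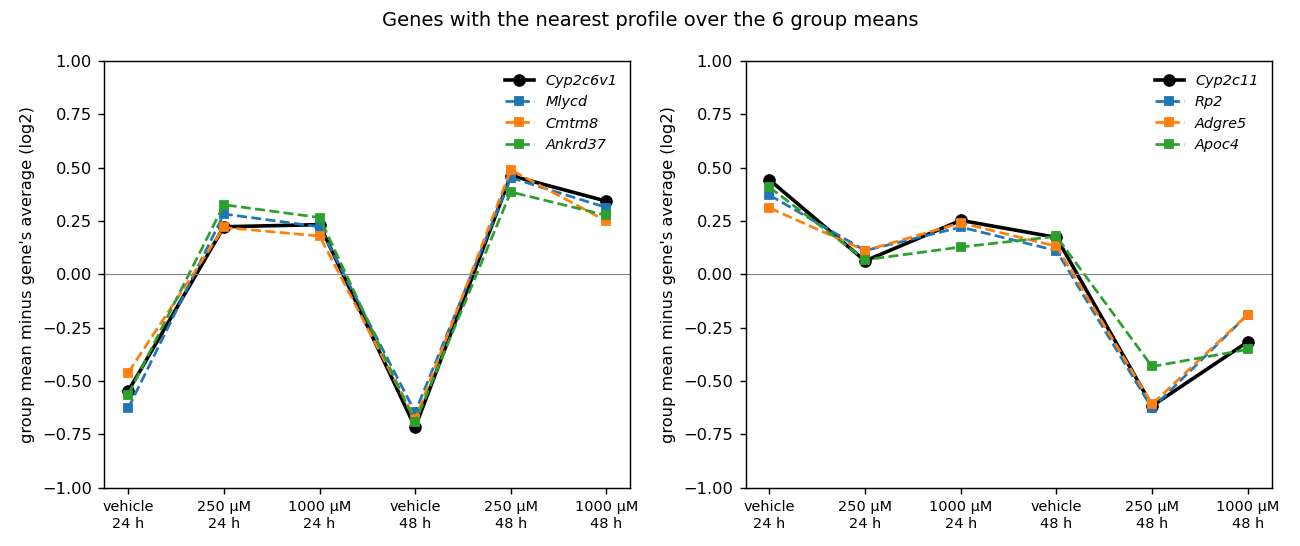
Group means minus each gene's own average (log2) over the 6 groups, for Cyp2c6v1 with Mlycd, Cmtm8 and Ankrd37, left, and for Cyp2c11 with Rp2, Adgre5 and Apoc4, right. The solid black line is the CYP2C gene, which spans 1.18 at left and 1.06 at right, and the dashed lines of the nearest genes run close to it.

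The counts of gene lists that follow stand beside the shares of all tested genes, at 48 h 15.2% up and 26% down at 250 µM and 11.5% up and 18.3% down at 1000 µM, and at 24 h 8.31% up and 11% down, and 8.28% up and 11.2% down. The median changes of all tested genes were -0.07 and -0.04 at 48 h and -0.03 at both doses at 24 h. The shares at 48 h without the 4 vehicle arrays of raised actin ratio were 6.53% up and 6.57% down at 250 µM and 5.86% up and 5.32% down at 1000 µM. The genes outside CYP2C that are named with changes at 48 h in the lists kept their calls there. Some genes picked by the same rule, but given only within the counts, did not. At 250 and 1000 µM Hmox1 went from 0.37 and 0.29 to 0.13 and 0.05, and Rarb from -0.58 and -0.48 to -0.14 and -0.05. Alad, Cd14 and Cd68 missed the threshold at 1000 µM, and Onecut1 at 250 µM, in this fit with only 1 vehicle array of 48 h.

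Other P450 enzymes of drug metabolism moved in both directions. Of 32 listed CYP1, CYP2 and CYP3 genes outside CYP2C, 22 were tested, and 7 rose and 6 fell at 250 µM and 48 h, with 6 and 6 at 1000 µM. At each dose 5 rose and 3 fell without the 4 arrays. At 24 h 3 rose and 6 fell at 250 µM and 3 rose and 8 fell at 1000 µM. The median change at 48 h was 0.04 and -0.04. With time in vehicle 8 of the 22 fell, beside 11.7% of all tested genes, and 4 did so without the 4 arrays. Cyp3a2, a male-predominant steroid hydroxylase, was above vehicle by 1.82 ± 0.09 at 250 µM and 1.73 ± 0.09 at 1000 µM at 48 h. It fell with time in vehicle (-2.11 ± 0.09). At 24 h its changes were 0.37 and 0.08. From 24 to 48 h its means went from 12.6 to 10.5 in vehicle, 12.97 to 12.32 at 250 µM and 12.68 to 12.23 at 1000 µM. Cyp3a18 rose by 1.30 ± 0.12 and 1.16 ± 0.12 at 48 h, while Cyp1a2, an enzyme of caffeine and arylamine metabolism, fell (-0.65 ± 0.08 and -0.59 ± 0.08).

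Genes that supply P450 enzymes with electrons and haem are listed next. Of 15 listed 14 were tested, and 8 rose and 1 fell at 250 µM and 6 rose and 1 fell at 1000 µM at 48 h, with medians of 0.27 and 0.21. There were 5 and 3 up without the 4 arrays, with medians of 0.11 and 0.05. At 24 h 5 rose at 250 µM and 4 at 1000 µM. Alas1, the first enzyme of haem synthesis, rose by 0.74 ± 0.07 and 0.59 ± 0.07 at 48 h. Pgrmc2, a haem-binding membrane protein, rose by 0.77 ± 0.06 and 0.67 ± 0.06.

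Among transcription factors of liver P450 genes 18 of 22 were tested, with 5 up and 6 down at 250 µM and 6 up and 3 down at 1000 µM at 48 h, and medians of -0.04 and -0.04. Without the 4 arrays there were 4 up and 3 down, and 3 up and 4 down, with medians of 0.01 and 0.11. At 24 h there were 3 up and 6 down, and 3 up and 4 down. Hlf, a PAR bZIP factor, rose by 1.14 ± 0.09 and 0.88 ± 0.09 at 48 h, and Nr1h4, the bile acid receptor FXR, by 0.70 ± 0.07 and 0.61 ± 0.07. In the growth hormone signalling list 7 of 11 genes were tested and 1, the receptor gene Ghr, fell in each comparison with vehicle (-0.45 and -0.36 at 24 h, -0.62 and -0.59 at 48 h), with and without the 4 arrays at 48 h.

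Genes of epoxide and fatty acid oxidation and of retinoid handling, through which several CYP2C substrates also pass, were counted too. Of 15 epoxide hydrolases and fatty acid monooxygenases 12 were tested, and 5 rose and 1 fell at 250 µM and 4 rose and 1 fell at 1000 µM at 48 h, with 4 up and 2 down, and 4 up and 1 down, at 24 h. At 48 h 4 rose at each dose without the 4 arrays. Cyp4a1, the fatty acid omega-hydroxylase induced through PPARα in rodents, rose by 2.67 and 2.72 at 24 h and by 2.24 and 2.13 at 48 h. Ephx2, soluble epoxide hydrolase, which converts arachidonic acid epoxides to diols, rose by 1.17 ± 0.07 and 1.09 ± 0.07 at 48 h. Of 20 retinoid genes 14 were tested, and 4 rose and 1 fell at 250 µM and 3 rose and 1 fell at 1000 µM at 48 h, with 3 up and 1 down at both doses at 24 h. Without the 4 arrays 3 rose at each dose at 48 h. Aldh1a1, a retinal dehydrogenase, rose by 0.87 ± 0.07 and 0.75 ± 0.07, and Dhrs3, a retinal reductase, by 0.94 ± 0.06 and 0.71 ± 0.06.

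Of the 12 hepatocyte markers tested, 5 fell at 250 µM and 6 at 1000 µM at each time, and 4 at each dose at 48 h without the 4 arrays. Tat, which breaks down tyrosine, fell at 48 h (-0.89 ± 0.07 at 250 µM and -0.91 ± 0.07 at 1000 µM), as did Tdo2, which breaks down tryptophan (-0.61 ± 0.07 and -0.76 ± 0.07), and Ass1 of the urea cycle (-0.79 ± 0.06 and -0.76 ± 0.06). Among markers of other cell types at 48 h, 1 of 5 stellate cell markers rose at 250 µM, 1 of 5 Kupffer cell and leukocyte markers rose at 250 µM, 1 rose and 1 fell at 1000 µM, and 1 cholangiocyte marker fell at 1000 µM, the only one tested. Without the 4 arrays the calls at 48 h were 1 Kupffer cell and leukocyte marker up at 250 µM and the cholangiocyte marker down at both doses. With time in vehicle 4 of the 12 hepatocyte markers, 2 of the 5 Kupffer cell and leukocyte markers and both liver endothelial markers fell and the cholangiocyte marker rose, beside 11.7% down and 16.4% up of all tested genes. Of these 1 hepatocyte marker and the cholangiocyte marker were called without the 4 arrays, where 0.769% of all tested genes fell and 0.617% rose. Their part in the CYP2C results was not tested.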

How the data were processed

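RNA from 30 culture wells was measured on Affymetrix rat arrays, 1 array per well. The table holds array intensity as the authors deposited it, linear and not logged, from MAS5 per the submitters' processing notes. The sources used here give neither its version nor its settings. After trimming 2% of values from either end, array means lay between 1500.6 and 1500.7, so each array carries a common scaling, which would hide a shift shared by most genes. Arrays give no read depth, and their number, 5 per group, limits the precision.

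Signals were taken as log2 after adding 1. Of 31099 probe sets, 57 controls and the 40% with the lowest mean were left out (limit 7.88 on the log2 scale, signal 234). A gene was represented by its brightest probe set, by the mean over arrays, among those with 1 gene symbol, giving 10528 genes. The fit (limma 3.58.1, R 4.3.3) had a mean for every group, 24 residual degrees of freedom, a mean-variance trend and Benjamini-Hochberg adjustment over all tested genes in each of 9 comparisons, with a threshold of 0.05. The fit was run on simulated data with the spread of the vehicle arrays of 24 h. The bound it had to reach was lowered after its outcome was seen. It does not represent the vehicle arrays of 48 h with a raised actin ratio, and no result here rests on it. Gene groups are described by counts, with no test of their own. Comparisons with the same vehicle arrays share those arrays.

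The members and the 11 gene lists were chosen with earlier results of these data known. Genes outside the family were named from each list, up to 4 with the smallest p at 1000 µM and 48 h, and as the 3 nearest profiles of each member called in a comparison with vehicle. Of the genes this rule picked, Cyp2a2, Alad, Hmox1, Cebpb, Onecut1, Cyp4a3, Cyp2j4, Cyp26a1, Rarb, Fgb, Cd14, Cd68 and Epcam are included in the counts of their lists.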

Additional observations from a re-analysis of the deposited data

Results flagged for a closer look

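The effect of 250 µM differed between the times, by the interaction term of limma, for 2 members. For Cyp2c6v1 it was larger at 48 h by 0.41 ± 0.09 (adjusted p = 0.00418), and every 250 µM array lay above every vehicle array at both times. For Cyp2c11 it was more negative at 48 h by -0.42 ± 0.12 (adjusted p = 0.0313), with overlap at 24 h and none at 48 h. Beside both stands the raised beta-actin 3'/5' log2 ratio of the vehicle arrays of 48 h (1.72 ± 0.494, SD, n = 5), and neither call remained without the 4 arrays of raised ratio (0.40 and -0.51). In 36 groups of the 6 members, 0 held an array far from the other 4 by Dixon's test.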

How the results depend on the processing

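The 4 rises of Cyp2c6v1 with the compound and the falls of Cyp2c7, Cyp2c13 and Cyp2c23 with time in vehicle kept their direction and their side of the threshold under each alternative run, which were another pseudocount (16), array medians centred, quantile normalization, no filter, each probe set tested on its own, no mean-variance trend, the actin ratio as a covariate, the 4 vehicle arrays of 48 h with a raised ratio left out, only 1 of those arrays kept, a block by sets of title numbers, and each array left out in turn. Of 660 CYP2C values without 1 array, 15 lost and 8 gained a call, and of 408 values under the other planned settings 16 lost and 7 gained one. Of 120 values with only vehicle array 1, 2, 3 or 5 kept at 48 h, settings added after the data were seen, 18 lost a call. The causes were not tested, though a fit with fewer arrays has fewer samples by construction. The sample titles carry running numbers that pass through the 6 groups in 5 sets of 6, and nothing in the labels says what a set shares. Of 75 pairs of arrays of 1 set, 19 had deviations from their group means that correlated over 0.1 across genes (from -0.124 to 0.223, median 0.0413, beside -0.0117 between sets), and 15 of 30 arrays were closest on average to their own set, so the sets were not taken as pairs. With the set as a replicate block, added after the data were seen, 2119, 2132, 4450 and 3255 genes changed at 250 and 1000 µM at 24 h and then at 48 h, 3094 with time in vehicle, and 1041 and 124 in the effects of 250 and 1000 µM, and no call of the 6 members changed.

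With array medians centred, 1327 genes changed at 250 µM and 1284 at 1000 µM at 24 h (2030 and 2051 in the reported fit), 0 and 2 between doses at 24 and 48 h (2 and 7), 150 and 16 in the difference of effects at 250 and 1000 µM (880 and 102), and of the members 3 changed with time in vehicle (5 reported) and 0 had a different effect of 250 µM (2 reported). With quantile normalization 157 genes differed in the effect of 1000 µM, and of the members 4 changed at 1000 µM and 24 h (2 reported), 3 with time in vehicle and 1 in the effect of 1000 µM (0 reported). This setting added calls for Cyp2c22 at 24 h (0.20 and 0.22), Cyp2c11 at 1000 µM and 24 h (-0.22) and Cyp2c13 at 250 µM and 48 h (0.20). Tested probe set by probe set, the fit covered 18625 probe sets in place of 10528 genes, so its counts have a larger base. There 6556 changed at 250 µM and 48 h (4342 genes reported), 4638 with time in vehicle (2963) and 13 between doses at 48 h. Without the mean-variance trend 0 genes differed between doses at 24 h, 65 in the effect of 1000 µM, and 1 member in the effect of 250 µM.

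With the actin ratio as a covariate 2782 genes changed at 250 µM and 48 h, 749 with time in vehicle and 248 in the effect of 250 µM, and 3 members with time. Without the 4 vehicle arrays of raised ratio the counts were 1380 and 1177 at 250 and 1000 µM and 48 h (4342 and 3132 reported), 146 with time in vehicle, 58 and 38 in the effects of 250 and 1000 µM, and 3 and 0 members with time and in the effect of 250 µM. There Rarb changed with time by -0.09, where the reported value was 0.34. With only vehicle array 2, 3 or 5 kept at 48 h, 2381, 2650 and 2194 genes changed at 250 µM, 1448, 1649 and 1311 at 1000 µM, 1158, 1542 and 1080 with time, 383, 570 and 336 in the effect of 250 µM and 30, 45 and 32 in that of 1000 µM. With only array 1 kept, 432 differed in the effect of 1000 µM. With each of these 4 arrays 3 members changed with time and 0 differed in the effect of 250 µM, and with array 3 only 1 member changed at 1000 µM and 48 h. Sult1e1 turned from -0.21 to 0.85 at 250 µM and from -0.21 to 0.84 at 1000 µM with array 1 only, and its differences of effect were then 1.05 and 1.03, and Onecut1 at 250 µM turned from -0.45 to 0.02 with array 2 only.

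Compared at 250 or 1000 µM in place of vehicle, 1408 and 1897 genes changed with time, and Cyp2c6v1 turned to 0.24 and 0.11. Leaving out 1 array at a time, the counts ran from 1831 to 1953 and 1818 to 1955 genes at 24 h and from 3979 to 4683 and 2690 to 3599 at 48 h for 250 and 1000 µM, from 0 to 3 and 1 to 20 between doses at 24 and 48 h, from 2425 to 3690 with time in vehicle, and from 609 to 1789 and 63 to 322 in the effects of 250 and 1000 µM. The highest counts against vehicle at 48 h, with time in vehicle and in both effects were reached without vehicle replicate 4 of 48 h. This is the array of that group whose actin ratio was not raised. For the 6 members the counts ran from 3 to 5 with time in vehicle, 1 to 3 in the effect of 250 µM and 0 to 1 in that of 1000 µM.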
